A study of Mus musculus with 6 samples.

Results

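Amino acid transporters of the families Slc1a, Slc3a, Slc6a, Slc7a, Slc36a, Slc38a and Slc43a were examined in mouse colon epithelium with and without Bcl9 and Bcl9l. The members were all genes whose single symbol in the array annotation starts with one of these names. This gave 63 of the 18193 genes that the array reads, and 125 probe sets, each a small group of short probes against transcripts of the gene. Of the 63 genes, 31 were read by 1 probe set and 32 by several. Each gene is described by its brightest probe set, the one with the highest mean over the arrays, and the other probe sets are given beside it. The annotation brings in 3 members that lie opposite a transporter gene and are not transporters themselves, Slc7a6os, Slc36a1os and Slc6a19os.

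The knockout group was vil-Cre-Bcl9-/-/Bcl9l-/- mice (3 arrays, replicates 1, 2 and 3, from pools of 3, 2 and 2 mice). The comparison group was wildtype mice (3 arrays, replicates 4, 5 and 6, from pools of 3 mice each). All mice were 12 weeks old and of 129SvEv/C57BL/6/DBA/2 mixed background. The villin promoter directs Cre to the intestinal epithelium, and BCL9 and BCL9L tie beta-catenin to its co-activators in Wnt signalling. Cre is named for the knockouts alone, so Cre and the loss of both genes cannot be told apart. Cells were shaken off with EDTA and were not sorted. Values are the authors' log2 expression values, so a difference of 1 is a factor of 2.

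Epithelial markers were bright, with all 18 measured colon epithelium genes above the threshold described next and a median at the 99.2nd percentile of the array. Arrays carry no read depth, and the precision is limited by their number. Wild-type replicate 6 stood apart. The B and plasma cell marker level (log2, relative to each gene's mean) was -0.53 to -0.51 in the knockouts, against -0.05, -0.67 and 2.47 in wild-type replicates 4, 5 and 6. All 16 measured B and plasma cell markers had a difference below 0, and 13 of the 16 lay above the threshold. Of the T cell and intraepithelial lymphocyte markers 18 of 19 lay below 0, with a level of -0.41 to 0.06 in the knockouts, against -0.17, 0.03 and 0.70 in wild-type replicates 4, 5 and 6. Of the fibroblast markers 13 of 16 lay below 0, with -0.45 to -0.12 in the knockouts, against -0.08, -0.08 and 0.76 in wild type. Of the macrophage and dendritic cell markers 8 of 14 lay below 0, with -0.23 to 0.00 in the knockouts, against -0.21, -0.24 and 0.58 in wild type. No marker on these 4 lists passed limma's test (smallest adjusted p = 0.953). The transporters were also fitted with the B and plasma cell level as covariate. Slc1a4 then differed by 0.06 in place of 0.39, and Slc36a4 by -1.12 in place of -0.52. Slc36a1 differed by 0.52 in place of 0.25, Slc3a1 by -0.59 in place of -0.49 and Slc7a9 by 1.02 in place of 1.00. Wild-type replicate 6 held the highest level in that fit. Beyond it, the part of these cells in the transporter differences was not tested. In unsorted material, fewer cells of a type and less RNA per cell cannot be told apart.

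Amino acid transporters differ in what drives them and in which membrane they sit. Some use the sodium or proton gradient to pull amino acids into the cell, and others exchange one amino acid for another. The light chains of the Slc7a family reach the membrane only when bound by a disulfide bridge to a heavy chain of the Slc3a family. In the gut, carriers of the luminal membrane take amino acids up, and exchangers of the basolateral membrane pass them to the blood. Several members serve other tissues, where they clear glutamate, GABA, glycine or monoamines from synapses.

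No detection calls were at hand, so brightness was set against 80 probe sets of olfactory and vomeronasal receptor genes, which mostly lack a role in colon. The 95th percentile of their wild-type means was 4.71. By this measure 35 of the 63 members lay above the threshold in wild type, or 55.6%, beside 70.5% of all genes. With the 99th percentile of the same probe sets (6.13) as threshold, 23 did. Probe sets differ in how strongly they bind, so a percentile says how bright a reading was and does not rank transcripts by amount. Above the 95th percentile threshold were 6 of 7 Slc1a genes, 2 of 2 Slc3a, 9 of 21 Slc6a, 7 of 16 Slc7a, 2 of 5 Slc36a, 7 of 9 Slc38a and 2 of 3 Slc43a genes.

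**Figure D1:**
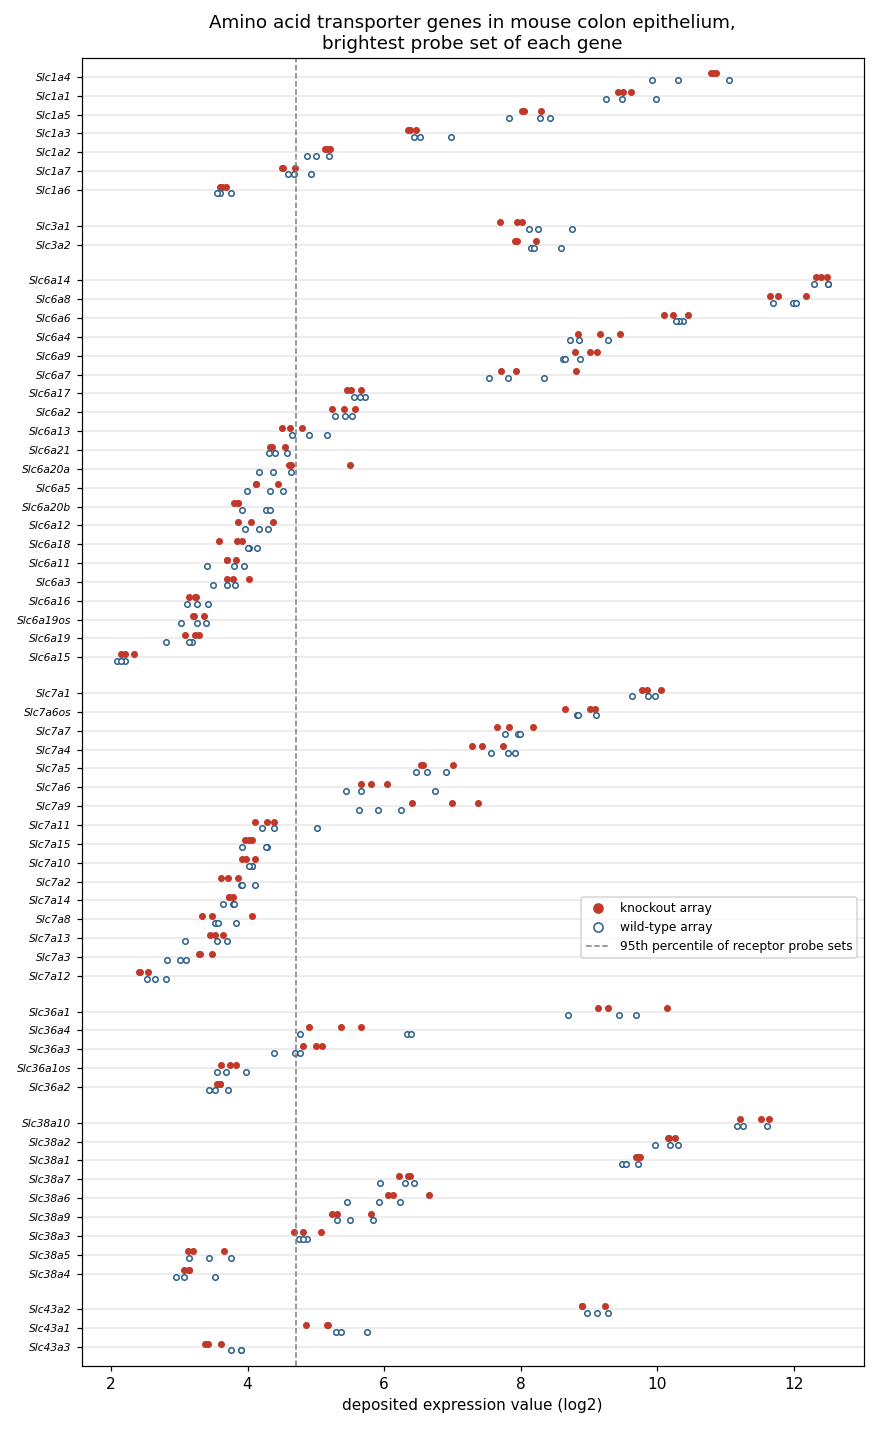
Deposited log2 expression value (horizontal axis) of the brightest probe set of each of the 63 genes in the 3 knockout arrays (filled, upper of each pair) and the 3 wild-type arrays (open, lower), ordered by wild-type mean within each family. The dashed line is the 95th percentile of olfactory and vomeronasal receptor probe sets in wild type, 4.71, and 35 genes have a wild-type mean above it.

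The 10 brightest members came from the Slc6a, Slc38a, Slc1a, Slc7a and Slc36a families, and their knockout and wild-type values overlapped in each case. Slc6a14, a sodium- and chloride-driven carrier of neutral and basic amino acids, measured 12.33, 12.40 and 12.48 in the knockouts, against 12.50, 12.29 and 12.50 in wild type, at the 98.8th wild-type percentile of all probe sets. The knockouts differed by -0.03 (95% interval -0.30 to 0.24), and the other Slc6a14 probe set, at the 97.4th percentile, by -0.05. Slc6a14 was therefore among the brightest readings of the array in every library, and the 6 arrays differed little. Slc6a8, the creatine transporter, measured 11.78, 12.17 and 11.66 in knockout arrays and 11.99, 11.69 and 12.03 in wild type (98.0th percentile), which is a difference of -0.03 (-0.44 to 0.38). The other Slc6a8 probe set differed by 0.18. Slc6a6, the taurine transporter, averaged 10.26 ± 0.18 in knockout arrays and 10.32 ± 0.05 in wild type (SD, n = 3 each), and its 4 probe sets differed by -0.14 to -0.02. Taurine and creatine are not built into protein, and both carriers belong to the osmolyte and creatine branch of the family.

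Among the sodium-coupled neutral transporters, Slc38a10 averaged 11.46 ± 0.22 in knockout arrays and 11.34 ± 0.23 in wild type (96.9th percentile), which is a difference of 0.12 (-0.28 to 0.52). Of its 7 probe sets, 6 were above 0. Slc38a2, a carrier of glutamine and alanine that cells raise when amino acids run short, averaged 10.20 ± 0.05 and 10.16 ± 0.17 in knockout and wild-type arrays, a difference of 0.04 (-0.25 to 0.33). Its dimmest probe set read 7.0 to 8.11 in the knockouts, against 6.11 to 7.69 in wild type, and differed by 0.24. Slc38a1, a related glutamine carrier, measured 9.75, 9.73 and 9.69 in knockout arrays and 9.72, 9.48 and 9.54 in wild type, which is a difference of 0.14 (-0.12 to 0.41). The other members of the family above the threshold, Slc38a3, Slc38a6, Slc38a7 and Slc38a9, differed by 0.04, 0.41, 0.08 and -0.10. Slc38a9 reports arginine in the lysosome to the growth regulator mTORC1, and all 7 of its probe sets lay below 0, at -0.30 to -0.07. Only 3 of the 7 read above the threshold, and these differed by -0.16 to -0.08. None of these passed the test.

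In the Slc1a family, Slc1a4, an exchanger of alanine, serine and cysteine, measured 10.79, 10.81 and 10.86 in the knockouts, against 10.31, 11.05 and 9.92 in wild type. The 3 knockout values lay close together and inside the wild-type range. The difference was 0.39 (95% interval -0.25 to 1.04), with 0.27 and 0.44 in the 2 dimmer probe sets. Leaving out arrays gave 0.14 without wild-type replicate 6 and 0.71 without wild-type replicate 5, so single wild-type arrays set its size. Slc1a1, the epithelial glutamate and aspartate transporter, averaged 9.51 ± 0.09 in knockout arrays and 9.58 ± 0.37 in wild type, with differences of -0.06, -0.00 and 0.18 in its 3 probe sets. Slc1a5, a glutamine exchanger, averaged 8.12 ± 0.15 in knockout arrays and 8.18 ± 0.31 in wild type, which is a difference of -0.06 (-0.49 to 0.37), and its other probe set differed by 0.25. The glial and neuronal glutamate transporters were dimmer, with Slc1a3 at the 63.5th, Slc1a2 at the 43.5th, Slc1a7 at the 39.6th and Slc1a6 at the 23.0th percentile.

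Slc7a1, the widely expressed carrier of arginine and lysine, measured 9.78, 10.05 and 9.85 in knockout arrays and 9.96, 9.87 and 9.63 in wild type (90.8th percentile), which is a difference of 0.07 (-0.25 to 0.39). Its other 2 probe sets differed by -0.12 and 0.07. Slc36a1, a proton-driven carrier of small neutral amino acids, measured 9.13, 10.15 and 9.28 in knockout arrays and 9.44, 8.69 and 9.68 in wild type. Its difference of 0.25 was -0.07 without knockout replicate 2, which held the highest value, and -0.04 without wild-type replicate 5, which held the lowest. Slc36a4, of the same family, measured 5.38, 5.66 and 4.90 in the knockouts, against 6.33, 6.39 and 4.77 in wild type. Wild-type replicate 6 lay below every knockout, and the difference of -0.52 (-1.58 to 0.55) was -1.05 without it (limma adjusted p = 0.575). It was -0.24 without wild-type replicate 5, -0.27 without wild-type replicate 4 and -0.31 without knockout replicate 3, so its size rested on single arrays.

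Several textbook carriers of the small intestine were dim here. Slc6a19, the main luminal carrier of neutral amino acids there, measured 3.23, 3.08 and 3.28 in knockout arrays and 3.18, 3.14 and 2.81 in wild type, at the 13th percentile, and its other probe set was at the 13.3rd. Its kidney relative Slc6a18 was at the 29.5th percentile, and the proline carriers Slc6a20a and Slc6a20b at the 34.5th and 31.3rd. Cltrn, the partner that brings this group to the membrane in the kidney, was at the 2.30th percentile. Not all luminal carriers read dim. Slc15a1, which takes up dipeptides and tripeptides and is no member of these families, averaged at the 98.2nd percentile and differed by -0.07. Beside these, 12 of 15 measured small intestine genes lay above the threshold, with a median at the 56.4th percentile. Fabp6, at the 95.7th, and Slc5a1, at the 97.3rd percentile, lay far above that median.

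In the comparison of knockout with wild type, no member passed the test. limma called 0 of 63 genes after adjustment over all 18193 genes (smallest adjusted p among members = 0.953), where 0% of all genes were called. It called 0 of 125 probe sets after adjustment over all 45037 (smallest adjusted p = 0.991), again beside 0%. At an unadjusted p under 0.05 there were 7 members, 3 higher and 4 lower in the knockouts, or 4.76% and 6.35%. The background shares were 2.69% higher and 2.02% lower, 4.71% in all. Of these 7 members 3 lay above the receptor threshold, Slc7a9, Slc3a1 and Slc43a1. Only Slc3a1 also lay above the 99th percentile of receptor probe sets (6.13), and the wild-type means of Slc7a9 and Slc43a1 were 5.93 and 5.47.

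All knockouts lay above all wild-type arrays for 3 members, and below them for 6, beside 5.49% and 4.83% of all genes, or 10.3% in both directions. The members' share in both directions was 14.3%. Over all probe sets of the members, 4 were higher and 6 lower at an unadjusted p under 0.05, or 3.20% and 4.80%, beside 2.29% and 1.85% of all probe sets. Without overlap there were 4 higher and 9 lower, or 3.20% and 7.20%, beside 4.93% and 4.76%. The median difference was -0.02 over the 63 members and 0.01 over all genes. There were 27 members above and 36 below 0, where 52.2% of all genes lay above.

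Most members differed little. The absolute difference was under 0.3 for 52 of 63 members, or 82.5%, beside 85.6% of all genes. For 57 members, or 90.5%, the 95% interval lay within a factor of 2 either way, beside 91.1% of all genes. The 95% interval of a typical member reached 0.36 either side of its difference.

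**Figure D2:**
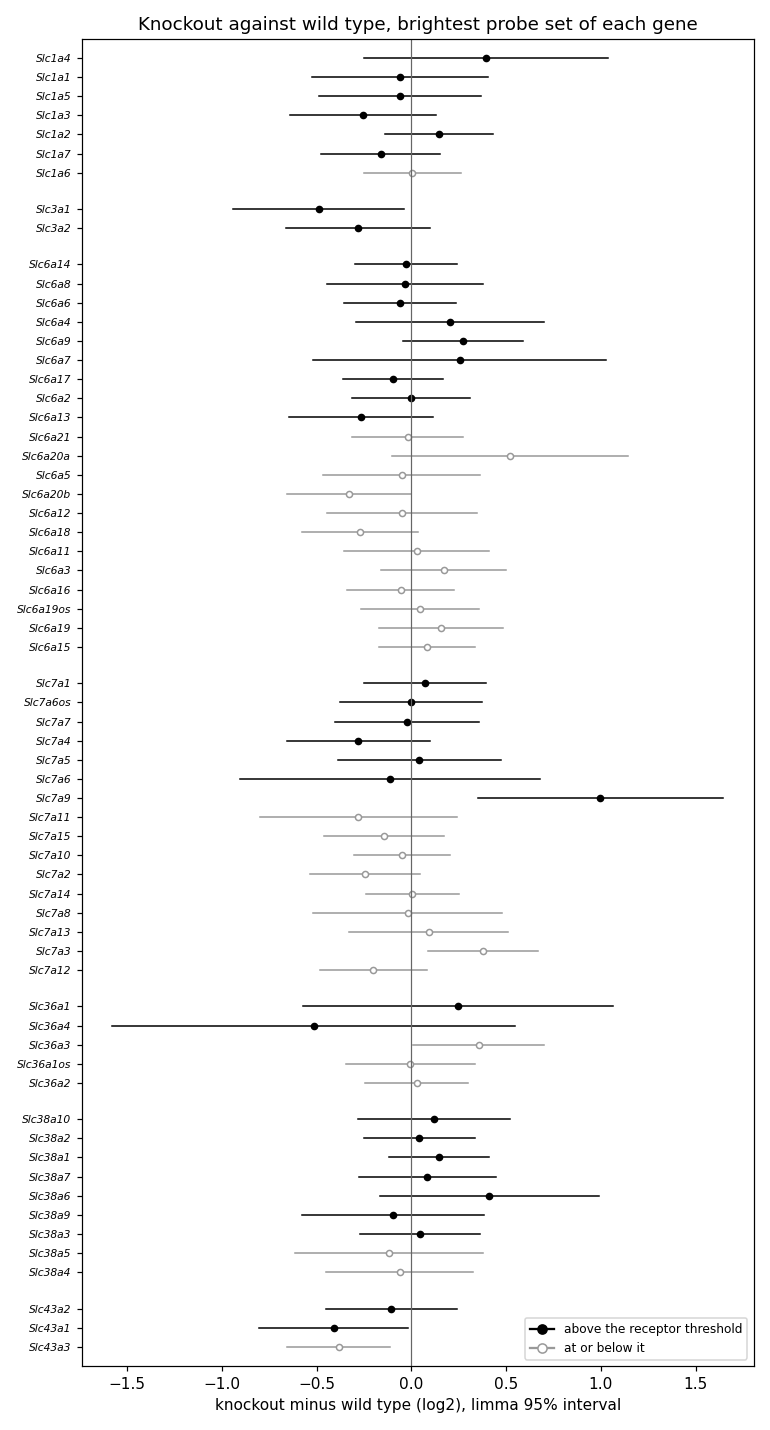
Log2 difference, knockout minus wild type (horizontal axis), with limma's 95% interval for the brightest probe set of each of the 63 genes, in the same order by family. Filled points are the 35 genes above the receptor threshold and open points the 28 at or below it; Slc7a9 lies farthest to the right at 1.00 and no gene passed the adjusted test.

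The heavy and light chain that together form the luminal exchanger of cystine and basic amino acids differed in opposite directions. Neither passed. Slc7a9, the light chain, measured 6.40, 7.0 and 7.38 in the knockouts, against 6.25, 5.63 and 5.91 in wild type. Every knockout lay above every wild-type array, although the nearest values were close. The difference was 1.00 (SE 0.27, 95% interval 0.35 to 1.64), a fold of 2.00, and had the smallest p of any member (limma unadjusted p = 0.00839, adjusted p = 0.953). It ran from 0.77 without knockout replicate 3 to 1.26 without knockout replicate 1 and was 0.99 without wild-type replicate 6. Slc7a9 has 1 probe set, at the 55.4th wild-type percentile, and its wild-type mean of 5.93 lies above the 95th percentile of receptor probe sets and below the 99th.

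Slc3a1, the heavy chain of this exchanger, measured 8.02, 7.69 and 7.95 in the knockouts, against 8.12, 8.75 and 8.26 in wild type. All 3 knockouts lay below all 3 wild-type arrays. The difference was -0.49 (SE 0.19, 95% interval -0.94 to -0.04, limma unadjusted p = 0.0373, adjusted p = 0.953). It was -0.30 without wild-type replicate 5, which held the highest value, and -0.55 without wild-type replicate 6. Slc3a1 also has 1 probe set, at the 80.2nd percentile.

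**Figure D3:**
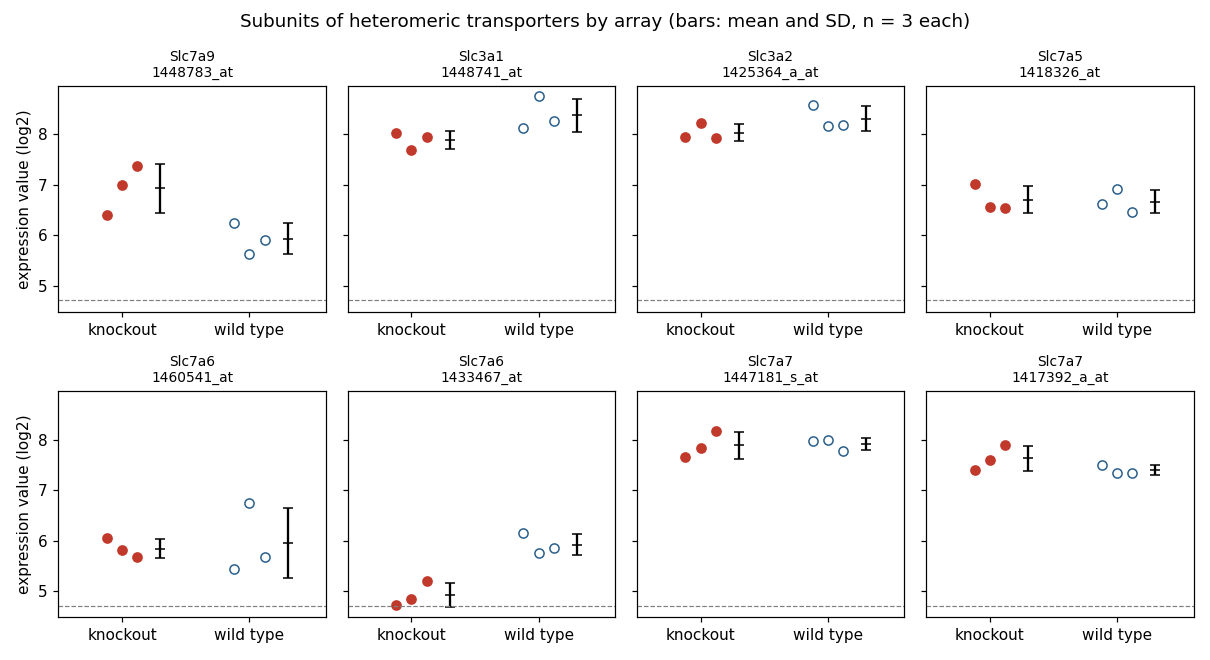
Deposited log2 expression value in each knockout (filled) and wild-type (open) array for 8 probe sets of heavy and light chains, with the mean and SD of each group (n = 3) as bars and the receptor threshold of 4.71 as a dashed line. Slc7a9 is higher and Slc3a1 lower in all 3 knockouts, and the 2 probe sets of Slc7a6 differ from each other.

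The promoters of these paired genes are shown because the subunits of 1 exchanger differed with opposite sign. They come from the RefSeq promoter table of build GRCm38.p6 and run from 250 bases before to 50 after the annotated start. Of the 63 members, 46 had an entry. Slc7a9 has 2 overlapping starts, of which the upstream one is shown, at chr7:35448842-35449141 on the plus strand, and Slc3a1 lies at chr17:85028097-85028396 on the plus strand.
Slc7a9: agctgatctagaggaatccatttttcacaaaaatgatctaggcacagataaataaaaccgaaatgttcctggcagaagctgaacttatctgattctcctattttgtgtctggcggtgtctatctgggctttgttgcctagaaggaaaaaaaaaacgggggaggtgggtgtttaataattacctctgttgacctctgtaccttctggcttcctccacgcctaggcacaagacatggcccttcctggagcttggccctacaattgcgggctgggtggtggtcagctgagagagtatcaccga
Slc3a1: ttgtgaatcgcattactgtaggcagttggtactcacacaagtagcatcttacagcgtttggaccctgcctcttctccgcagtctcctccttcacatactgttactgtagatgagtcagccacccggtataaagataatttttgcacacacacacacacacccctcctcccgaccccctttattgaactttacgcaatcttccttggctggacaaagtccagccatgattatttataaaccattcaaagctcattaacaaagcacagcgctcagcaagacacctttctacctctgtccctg
They were searched on both strands for CTTTGAT, the sequence to which TCF/LEF factors bring beta-catenin and its co-activators, and for TGATGNAA, the ATF4 composite element of amino acid shortage. No match to either lies in these windows, which are therefore in lower case throughout. The last 4 letters of the first motif can be the first 4 of the second, but no member held both.

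CTTTGAT was found in 5 of 67 member promoter windows, or 7.46%, and in 3.73% of all 32851 windows. The windows belong to 5 genes. They are printed with 12 bases on either side, on the gene's strand, with the motif in capitals (ATCAAAG is the motif on the opposite strand).
Slc38a10 (chr11:120151343-120151373, minus strand): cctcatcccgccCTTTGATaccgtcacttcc
Slc7a1 (chr5:148392845-148392875, minus strand): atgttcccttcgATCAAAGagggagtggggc
Slc38a9 (chr13:112660615-112660645, plus strand): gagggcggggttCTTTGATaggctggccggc
Slc1a2 (chr2:102706219-102706249, plus strand): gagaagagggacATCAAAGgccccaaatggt
Slc6a16 (chr7:45240616-45240646, plus strand): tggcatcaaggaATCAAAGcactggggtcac
The 5 genes differed by 0.12 (Slc38a10), 0.07 (Slc7a1), -0.10 (Slc38a9), 0.14 (Slc1a2) and -0.06 (Slc6a16), and knockout and wild-type values overlapped in each. TGATGNAA was found in 5 member windows of 4 genes, again 7.46%, and in 3.97% of all windows. Those genes, Slc1a4, Slc7a11, Slc7a7 and Slc6a21, differed by 0.39, -0.28, -0.02 and -0.02. A match describes letters and is not a site of binding.

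The other heavy chain, Slc3a2, pairs with most light chains and carries them to the basolateral membrane. It measured 7.95, 8.22 and 7.92 in the knockouts, against 8.59, 8.16 and 8.19 in wild type, which is a difference of -0.28 (95% interval -0.66 to 0.10). Knockout replicate 2 lay inside the wild-type range. The difference was -0.14 without wild-type replicate 4 and between -0.38 and -0.23 without any other single array. Both heavy chains thus read lower on average, the one without overlap and the other with it.

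Of the 10 genes listed as light chains, 3 lay above and 7 below 0, with a median of -0.04, and none passed. Only 4 of the 10 read above the receptor threshold, so the signs rest mostly on dim readings. Slc7a5, the carrier of large neutral amino acids such as leucine, averaged 6.71 ± 0.27 in knockout arrays and 6.66 ± 0.23 in wild type (SD, n = 3 each), which is a difference of 0.04 (-0.39 to 0.47). Slc7a7, which releases basic amino acids into the blood, averaged 7.89 ± 0.27 in knockout arrays and 7.91 ± 0.12 in wild type, and its probe sets differed by -0.02 and 0.23. Slc7a8, Slc7a10 and Slc7a11 lay below the receptor threshold. Slc7a8, a basolateral exchanger of neutral amino acids, differed by -0.02, and Slc7a10, a carrier of small neutral amino acids known from brain, by -0.05. Slc7a11, which brings in cystine in exchange for glutamate, differed by -0.28, or by -0.04 without wild-type replicate 4, which held its highest value of 5.02 against 4.10 to 4.39 in the other arrays.

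Slc7a6, which exchanges basic for neutral amino acids, gave differences of unlike size in its 2 probe sets. The brighter one measured 6.05, 5.80 and 5.66 in the knockouts, against 5.44, 6.75 and 5.67 in wild type. Its difference was -0.11 and became 0.28 without wild-type replicate 5, which held the highest value. The other measured 4.73, 4.84 and 5.20 in the knockouts, against 6.15, 5.76 and 5.84 in wild type. All knockouts lay below all wild-type arrays. The difference was -1.0 (SE 0.17), with the smallest p of the 125 member probe sets (limma unadjusted p = 0.00078, adjusted p = 0.991). This probe set was singled out after its values were seen. It kept a difference of -1.13 to -0.88 when any 1 array was left out. In wild type the probe sets averaged 5.95 and 5.92, so they were alike in brightness and unlike in their difference. The transcripts that each reads were not analysed here. Slc7a6os, on the opposite strand, differed by -0.00.

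Other probe sets of the same gene gave a further check on the small differences. Of the 32 members with several probe sets, 15 had all of them on 1 side of 0. Counting only probe sets above the threshold, 17 genes had more than 1, and in 9 of these the differences shared a sign. In 14 of the 17 they lay within 0.3 of each other, and the others were Slc7a6 (range 0.88), Slc43a2 (range 0.79) and Slc1a5 (range 0.32). Slc43a2, a carrier of large neutral amino acids, averaged 9.01 ± 0.20 in knockout arrays and 9.12 ± 0.15 in wild type, which is a difference of -0.11. Its next probe set measured 8.02, 7.02 and 6.78 in knockout arrays and 6.98, 5.86 and 6.92 in wild type, which is a difference of 0.69 with overlapping groups, and its dimmest differed by -0.35.

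**Figure D4:**
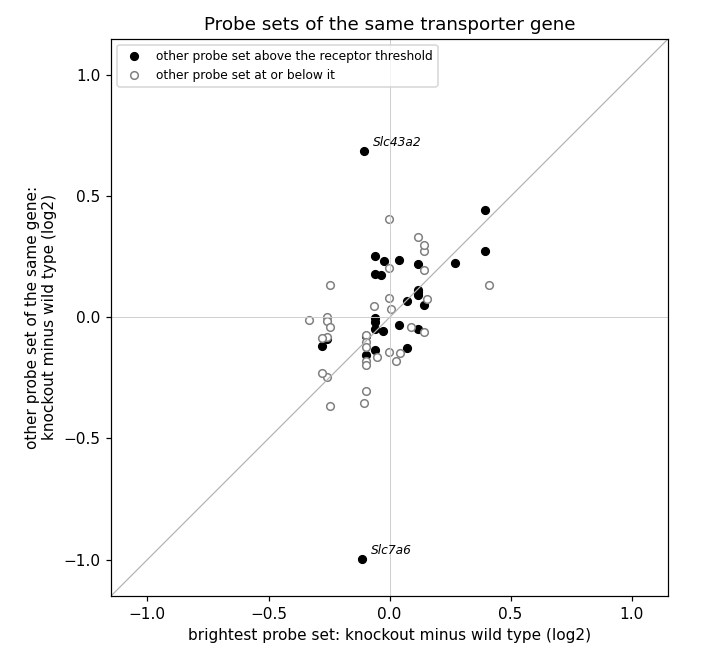
Difference of knockout minus wild type (log2) in the brightest probe set of a gene (horizontal axis) against each of its other probe sets (vertical axis, 62 points), filled where the other probe set lies above the receptor threshold and open where it does not. Points on the diagonal agree; Slc7a6 at -1.0 and Slc43a2 at 0.69 lie farthest from it.

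Slc43a1 and Slc43a3 were lower without overlap. Slc43a1, a carrier of branched-chain and other large neutral amino acids, measured 4.85, 5.17 and 5.16 in the knockouts, against 5.30, 5.75 and 5.36 in wild type. The difference was -0.41 (SE 0.16, 95% interval -0.80 to -0.02, limma unadjusted p = 0.0422, adjusted p = 0.953). It was -0.27 without wild-type replicate 5, which held the highest value. Slc43a3, which transports purine nucleobases and not amino acids, measured 3.42, 3.38 and 3.61 in the knockouts, against 3.76, 3.90 and 3.90 in wild type, all under the threshold. The difference was -0.38 (SE 0.12, limma unadjusted p = 0.0127, adjusted p = 0.953), with a range of -0.46 to -0.34 when any 1 array was left out.

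The remaining members with the smallest p were mostly dim. Slc7a3, a carrier of basic amino acids, differed by 0.38 at wild-type values of 2.83 to 3.10, and Slc36a3 by 0.35 at 4.38 to 4.76, both without overlap. Slc6a20b differed by -0.33, Slc6a18 by -0.27 and Slc7a2, a carrier of arginine, by -0.25, also without overlap and at wild-type means of 3.97 to 4.17. Slc6a18 differed by -0.17 without knockout replicate 1, which held its lowest value. The second Slc6a20b probe set differed by -0.01, and the 3 other Slc7a2 probe sets by -0.37, 0.13 and -0.04. Slc6a20a measured 5.49, 4.64 and 4.61 in the knockouts, against 4.63, 4.37 and 4.17 in wild type. Its difference of 0.52 was 0.23 without knockout replicate 1. The adjusted p of all these genes was 0.953.

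Slc6a9, a glycine transporter, was the 1 bright gene in this group. It measured 9.01, 8.80 and 9.12 in the knockouts, against 8.62, 8.64 and 8.86 in wild type, which is a difference of 0.27 (95% interval -0.04 to 0.59, limma unadjusted p = 0.0813, adjusted p = 0.953). Knockout replicate 2 lay just under wild-type replicate 6. The second probe set, at 6.36 to 6.64 in knockout arrays and 6.17 to 6.40 in wild type, differed by 0.23.

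The transporters of monoamines and GABA were mostly near or under the threshold. The noradrenaline transporter Slc6a2 was at the 48.7th percentile, the dopamine transporter Slc6a3 at the 23.5th, and the GABA transporters Slc6a11 and Slc6a13 at the 24.4th and 41.9th. The serotonin transporter Slc6a4, which clears the serotonin that enteroendocrine cells release, was at the 84.9th percentile. It measured 9.16, 9.46 and 8.84 in knockout arrays and 9.28, 8.85 and 8.72 in wild type, which is a difference of 0.20 (-0.29 to 0.70). Enteric neuron and glia markers had a median wild-type percentile of 37.9, and 6 of 14 lay above the threshold.

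Genes that work beside these transporters were read from 3 lists, and none of their genes passed over all genes (smallest adjusted p = 0.953 in each). Of 18 other carriers of amino acids and peptides, 8 were above and 10 below 0, with a median of -0.07. At an unadjusted p under 0.05 there was 1 of the 18, higher, beside 2.69% of all genes. This was Slc15a4, a lysosomal carrier of histidine and peptides, which measured 7.96, 7.99 and 7.79 in knockout arrays and 7.53, 7.64 and 7.71 in wild type, which is a difference of 0.29 (SE 0.11). Slc25a15, the mitochondrial ornithine carrier, differed by 0.30 (SE 0.14).

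Genes of the ATF4 and amino acid stress response had a median of -0.01, with 11 of 26 above 0 and none at an unadjusted p under 0.05. Asns, which makes asparagine and is a common readout of the response, averaged 8.90 in knockout arrays and 8.91 in wild type. Atf4 itself averaged 11.13 in the knockouts, against 11.30 in wild type. Trib3, another target, averaged 5.12 in the knockouts, against 5.47 in wild type. The leading genes were Aldh18a1, of proline synthesis, at 0.43 (SE 0.19) and the stress gene Nupr1 at 0.30 (SE 0.16).

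Genes of amino acid sensing by mTORC1 had a median of 0.05, with 16 of 24 above 0. At an unadjusted p under 0.05 there were 3 of the 24, all higher, beside 2.69% of all genes. Fnip1, the partner of folliculin, measured 8.29, 8.42 and 8.23 in knockout arrays and 7.99, 8.0 and 7.88 in wild type, which is a difference of 0.36 (SE 0.11). Rragc, a Rag GTPase that brings mTORC1 to the lysosome, measured 9.13, 9.10 and 9.24 in knockout arrays and 8.87, 8.84 and 8.73 in wild type, which is a difference of 0.34 (SE 0.11). Rraga, its partner, differed by 0.34 (SE 0.12). In these 3 genes the groups did not overlap, but they were picked by a small p, so this adds no support. The 5.49% of all genes that were higher without overlap were not picked in that way. None of the 3 passed (limma adjusted p = 0.953). Castor1, an arginine sensor, differed by -0.15.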

How the data were processed

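RNA of pooled colon epithelium was read on Affymetrix whole-genome mouse arrays after amplification of 30 ng, per the labels' protocols. The deposited values are log2 expression values that the authors made with RMA, per the submitters' processing notes, without a version; the scale was read from the values (1.78 to 14.4). Scanner files, detection calls and scan dates were not analysed here. Of 45101 probe sets, 64 controls, those with several symbols (932) and those with none were left out at gene level; 1 probe set that names a member beside another gene was left out. Each gene took its brightest probe set, with no filter on low values. Using R 4.3.3, limma 3.58.1 (functions lmFit and eBayes, with two-sided tests) compared knockout with wild type, with Benjamini-Hochberg adjustment over all genes or all non-control probe sets and a threshold of 0.05; the fit was checked on simulated data. Groups came from the labels, and p-values measure the spread between pools of mice.

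The members, lists and tests were chosen with earlier results of these data known. Named were the 10 members with the smallest p, the 10 brightest, those with a difference of at least 0.5, heavy and light chains and a set of intestinal carriers, with 2 genes of each of 3 lists; others were named after their values were seen. The alternatives were cyclic loess, only brighter genes, averaging all probe sets of each gene, no _x_at or _s_at probe sets, an intensity trend, array weights, the B and plasma cell level as covariate, an unmoderated statistic and leaving out each array. The intervals cover the spread between arrays only.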

Additional observations from a re-analysis of the deposited data

How the results depend on the processing

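No paired analysis was possible because knockout and wild-type arrays share no replicate number. In all 14 alternatives 0 members were called at gene level, and 0 probe sets in the 8 run at probe set level. Members at an unadjusted p under 0.05 numbered 0 higher and 1 lower among the 21 left when only brighter genes were tested, where fewer genes enter. Of all genes in that test, 3.87% were higher and 1.275% lower. With the unmoderated statistic 2 members were higher and 1 lower, beside 2.63% and 2.08% of all genes. When single arrays were left out there were 1 to 4 higher and 1 to 5 lower. Without knockout replicate 1 there were 1 higher and 3 lower, beside 1.98% and 1.65% of all genes. Without knockout replicate 2 there were 4 higher and 1 lower, beside 3.34% and 1.53%. The median over members, -0.02, ran from -0.06 to 0.01 without single arrays and changed sign in 3 alternatives. Members above the receptor threshold numbered 23 with the 99th percentile and 35 without any 1 wild-type array. Of 32 named members, up to 6 changed sign in 1 alternative; none of the 10 with the smallest p did. Over all genes, 3 were called without wild-type replicate 6 and 2 with the B and plasma cell level as covariate, none of them members. The 3 arrays a group limit what can be seen, and dim readings may be background.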
